A study of Mus musculus with 16 samples.

Results

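The Tyro3 to Bloc1s6 segment is a run of neighbouring genes on mouse chromosome 2, the chromosome that also carries Wt1. Its 41 member genes were selected on the genotype differences measured on these same arrays, as genes of chromosome 2 beyond the close neighbours of Wt1. In RefSeq's gene order 68 protein-coding genes lie from Tyro3 to Bloc1s6, both ends included, so the members are 41 of 68 there and 41 of the 18513 genes that the exon-level annotation names singly. Another 27 protein-coding genes of the interval are no members, and 131 protein-coding genes lie between Wt1 and Tyro3. Their differences between genotypes are therefore given as a description, and calls of single rows are set beside the share called over all rows.

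RNA came from glomeruli, the filtering units of the kidney, taken from mouse embryos at stage E18.5 by magnetic separation after bead perfusion. One group of 4 was wild type and the other group of 4 carried a wt1(+KTS) mutation, named Frasier in the sample codes, and both were on a mixed C57Bl6 x DBA2 background with no special treatment. The labels give neither the zygosity, litter or sex of the embryos nor the strain from which a stretch of chromosome was inherited, and a letter in the sample codes that is not explained never occurs in both genotypes. Each of the 8 Affymetrix exon arrays was summarised as 93623 transcript clusters (gene level) and 375483 probe sets (exon level), so the 16 deposited samples are 8 hybridisations and n was 4 per genotype throughout.

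WT1 is a zinc-finger transcription factor of podocytes, and its +KTS splice form carries an insertion of lysine, threonine and serine between zinc fingers. In humans, loss of the +KTS form causes Frasier syndrome, a kidney and gonadal disease. The genes of the segment do not form a pathway. They include a receptor kinase, subunits of vesicle and microtubule complexes, nuclear proteins, metabolic enzymes and transporters, and their shared feature is position on a chromosome.

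All values are the deposited log2 signals, and a difference is mutant minus wild type on that scale, with its standard error (SE) from limma. A row is called where limma's Benjamini-Hochberg adjusted p over all rows of its table is under 0.05. Gene-level correlations between arrays were 0.938 to 0.960 among mutants and 0.876 to 0.946 among wild types, and wild-type replicate 4 was the least like the others (0.869 to 0.918 with the other 7 arrays). The Wt1 cluster, which does not separate splice forms, was at 9.01 ± 0.07 in wild type and 8.91 ± 0.11 in mutants (SD, n = 4 each), a difference of -0.11 that was not called. Podocyte markers were measured for 6 of 8 genes, all at or above the 83.1 percentile of clusters. Of these 6, 5 had negative differences, with 1 called lower. Markers of loop, distal tubule and collecting duct lay at the 93.5 to 99.9 percentile, and those of proximal tubule at 52.3 to 99.7. Differences were also negative for all 6 endothelial, 4 mesangial, 5 loop, distal tubule and collecting duct, 4 leukocyte and 2 erythroid markers measured, of which Ehd3 was called lower. Of 4 nephron progenitor markers Six2 (0.96 ± 0.11) and Eya1 (1.17 ± 0.12) were called higher. Cited1 (-0.02 ± 0.13) and Meox1 (0.001 ± 0.11) were level and not called. The part of these cell types in the segment's differences was not tested. In such bulk samples fewer cells of a type and less RNA per cell cannot be told apart.

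At the gene level the segment differed little between genotypes. Of the members, 34 have a transcript cluster of their own (44 clusters in all), 6 appear only in clusters shared with a neighbour, and Sord has none. The 34 members, each taken at its cluster of highest mean, had differences from -0.28 to 0.59, and 31 of the 34 were under 0.3 in size. Their median difference was 0.12, against 0.03 for all clusters with 1 symbol, with 23 positive and 11 negative. Called clusters were 2 of 44, both of Bloc1s6 and both higher, where 0.827% of all clusters were called, 0.336% higher and 0.49% lower. The genotypes did not overlap in 7 of the 34, 6 of them higher in the mutants, where 9.54% of all clusters and 16.8% of those with 1 symbol had no overlap.

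**Figure D1:**
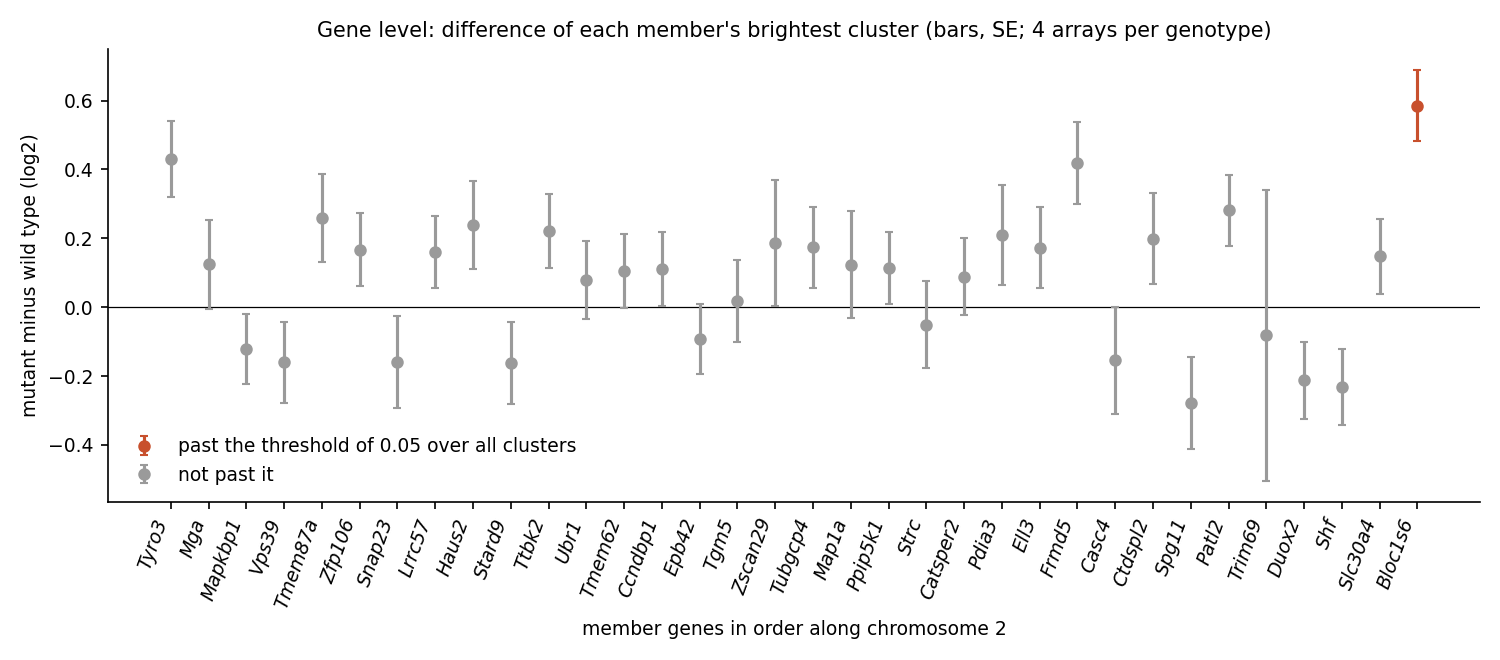
Gene-level differences (mutant minus wild type, log2; points, with SE as bars) of the 34 members that have a cluster of their own, in order along chromosome 2. Bloc1s6, at 0.59, is the only one called, Tyro3 and Frmd5 follow at 0.43 and 0.42, and the other members lie between -0.28 and 0.28.

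Exon-level probe sets told the genotypes apart in places. The members have 655 probe sets, from 1 to 51 per gene, and 3 members have fewer than 3. Of the 655, 37 were called (5.65%), 31 higher and 6 lower in the mutants, where 2.67% of all probe sets (1.46% higher, 1.21% lower) and 3.57% of those with 1 symbol were called. They lie in 16 of the 41 genes, of which 11 had only higher, 2 only lower and 3 both kinds, and the other 25 genes had none. The genotypes did not overlap in 152 of the 655, where 13% of all probe sets and 17.1% of those with 1 symbol did not. Taken relative to the mean of its gene's probe sets on each array, a probe set was called in 15 of 651 cases (2.3%), 11 higher and 4 lower, in 12 genes, where 0.481% of all probe sets tested this way were called, 0.251% higher and 0.23% lower. Those called, without overlap and different by at least 1 were 13, in 8 genes, where 1.21% of all probe sets and 1.63% of those with 1 symbol were.

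**Figure D2:**
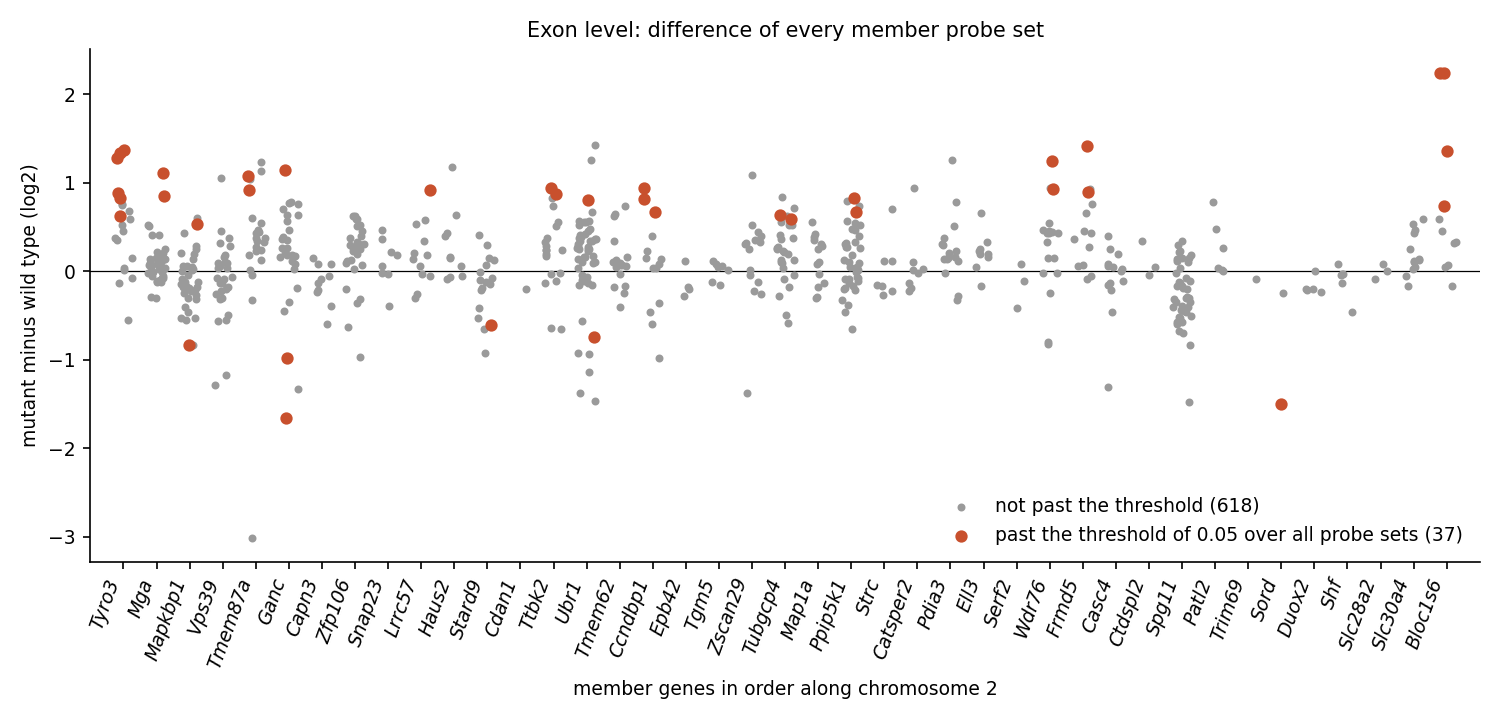
Differences (mutant minus wild type, log2) of all 655 member probe sets, by gene in order along chromosome 2, with small sideways shifts for legibility. The 37 called probe sets, drawn large, sit singly or in small groups among the uncalled probe sets of the same genes, and the widest negative difference, -3.02 in Tmem87a, was not called.

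Bloc1s6, at the far end of the segment, encodes pallidin, a subunit of the BLOC-1 complex that builds lysosome-related organelles such as melanosomes and platelet dense granules. Its main cluster (6880715) read 7.40, 7.30, 7.41 and 7.49 in wild-type replicates 1 to 4 and 8.04, 7.88, 8.00 and 8.01 in the mutants. All 4 mutants were above all 4 wild types, by 0.59 ± 0.10 (SE), and the spread within each genotype was small (SD 0.08 and 0.07). A minor cluster (6880716) read 5.20, 5.10, 5.28 and 6.98 in wild type and 8.05, 7.20, 8.28 and 8.02 in the mutants, a difference of 2.25 ± 0.41. Its values are identical to those of the single probe set 4669472, so both are one measurement. The calls of both clusters were lost in 7 of the 8 fits that left out an array. In the minor cluster wild-type replicate 4 stood closer to the mutants than to the other wild types.

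The gap differed from probe set to probe set along Bloc1s6. Of its 11 probe sets 4 were called (3.57% over all with 1 symbol), all higher, with differences of 2.25, 2.24, 1.36 and 0.74. The brightest (4825006) showed no such gap, reading 10.70, 10.48, 10.66 and 10.82 in wild type and 10.87, 10.62, 10.70 and 10.67 in the mutants, a difference of 0.05 ± 0.13. Relative to the gene's mean it was the one called probe set of Bloc1s6, lower by 0.70 (relative difference -0.70). That call was lost in 5 of the 8 fits that left out an array. Among probe sets at or above the median level the relative difference was -0.41 and not called. Averaged over its probe sets, Bloc1s6 differed by 0.75 ± 0.11. Mutant replicate 2 was the mutant nearest to wild type in all 4 called probe sets. The other subunits of BLOC-1 measured here, 6 genes elsewhere in the genome, had differences from -0.12 to 0.31, and none was called.

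Vesicle and membrane traffic has more members in the segment. Vps39, a subunit of the HOPS tethering complex of late endosomes, read 8.15 ± 0.13 in wild type and 7.99 ± 0.11 in mutants (SD, n = 4 each), and none of its 29 probe sets was called. None of the 8 genes of the HOPS and CORVET complexes was called, the widest difference being 1.13 ± 0.23 in Vps18. The Vps18 cluster read 6.65, 7.24, 6.85 and 6.21 in wild type and 7.67, 7.59, 8.08 and 8.14 in the mutants. Its genotypes did not overlap, as in 16.8% of all clusters with 1 symbol. Snap23, a SNARE protein of the plasma membrane, differed by -0.16 ± 0.13 and Casc4 (Golm2 in current RefSeq), a Golgi protein, by -0.15 ± 0.16. Spg11, spatacsin, which acts in renewing lysosomes and is mutated in human hereditary spastic paraplegia, had the lowest difference of the 34 clusters, at -0.28 ± 0.13. Of its 42 probe sets 12 had no overlap between genotypes, where 17.1% of all probe sets with 1 symbol had none, and none was called.

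Tyro3 opens the segment and is the first of its signalling proteins. It is a receptor tyrosine kinase of the TAM family, whose ligands are Gas6 and protein S, and Frmd5 is a FERM-domain protein of the cell cortex. The Tyro3 cluster read 6.63, 6.60, 6.76 and 6.65 in wild type and 6.99, 6.98, 7.20 and 7.20 in the mutants, and the Frmd5 cluster 5.64, 5.66, 5.74 and 5.88 against 6.29, 5.95, 6.19 and 6.16. Neither pair of groups overlapped, and neither cluster was called (0.43 ± 0.11 and 0.42 ± 0.12). As means of all probe sets, Tyro3 differed by 0.51 ± 0.10 and Frmd5 by 0.47 ± 0.10. On that measure 4 of the 41 members were called, Tyro3, Frmd5 and Bloc1s6 higher and Sord lower, where 11.4% of all genes were, 8.35% higher and 3% lower.

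Tyro3 had the most called probe sets of any member, 6 of 20 (3.57% over all with 1 symbol), all higher. Its probe set 4914502 read 6.71, 6.20, 6.80 and 6.24 in wild type and 7.55, 7.75, 8.15 and 7.98 in the mutants, a difference of 1.37 ± 0.19. The mutants were all higher, with no overlap. Probe set 5480277 of the same gene went the other way relative to the gene's mean, by -1.06 ± 0.16. It read 7.45, 7.35, 7.36 and 7.05 in wild type and 6.57, 6.77, 6.50 and 7.18 in the mutants. Its relative call was lost in 5 of the 8 fits that left out an array. In Frmd5, probe set 5275698 read 5.03, 5.47, 5.59 and 5.64 in wild type and 7.18, 6.51, 6.99 and 6.72 in the mutants (difference 1.42 ± 0.19), again without overlap. The other TAM genes were not called. Mertk and Pros1 (protein S) had differences of -0.40 and -0.41, while Axl (10.14) and Gas6 (8.82) had the same mean in both genotypes to 2 decimals.

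The remaining signalling members differed less at the gene level. Mapkbp1, a JNK scaffold mutated in a human nephronophthisis, differed by -0.12 ± 0.10. It had 1 probe set called higher (0.54) and 1 called lower (-0.84). Ppip5k1, which makes inositol pyrophosphates, differed by 0.11 ± 0.10, with 2 of 39 probe sets called higher. Ccndbp1, a cyclin D binding protein, differed by 0.11 ± 0.11, with 3 of 14 called higher. Over all probe sets with 1 symbol 3.57% were called either way. Shf, an SH2-domain adaptor, read 6.67, 6.44, 6.54 and 6.37 in wild type and 6.34, 6.24, 6.23 and 6.28 in the mutants. Of the 34 clusters it was the one whose genotypes were separate with the mutants lower (-0.23 ± 0.11), and it was not called.

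The 250 bases before the start of transcription are shown for Tyro3 and Frmd5, the members besides Bloc1s6 that were higher as clusters without overlap and called as means of probe sets, and for Shf, the only member with a motif match. They come from RefSeq, build GRCm38.p6, where 39 of 41 members had an entry, Bloc1s6 and Vps39 being the others. The motifs searched, on both strands, were GCGGGGGCG, which EGR1 and the WT1 form without KTS bind, and GCGTGGGAG, the core of a longer WT1 element. The first was in 2 of 47 member promoters, both entries of Shf, and in 2.57% of all 32851 promoters. The second was in 0 of 47, against 0.405% of all promoters. Capitals mark the match in the Shf window shown, which lies on the opposite strand. The other Shf entry, not shown, has a separate match on the gene's own strand.
Tyro3, chr2:119799264-119799513, plus strand: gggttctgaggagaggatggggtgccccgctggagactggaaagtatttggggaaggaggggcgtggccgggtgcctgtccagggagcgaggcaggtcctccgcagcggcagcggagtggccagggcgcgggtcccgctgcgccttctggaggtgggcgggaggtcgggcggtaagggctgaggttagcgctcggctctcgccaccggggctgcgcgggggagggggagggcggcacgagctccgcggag
Frmd5, chr2:121807058-121807307, minus strand: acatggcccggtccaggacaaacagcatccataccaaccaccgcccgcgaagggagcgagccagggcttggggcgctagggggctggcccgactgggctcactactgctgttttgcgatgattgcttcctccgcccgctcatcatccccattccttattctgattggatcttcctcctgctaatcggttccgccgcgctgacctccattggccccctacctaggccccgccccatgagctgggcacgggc
Shf, chr2:122369148-122369397, minus strand: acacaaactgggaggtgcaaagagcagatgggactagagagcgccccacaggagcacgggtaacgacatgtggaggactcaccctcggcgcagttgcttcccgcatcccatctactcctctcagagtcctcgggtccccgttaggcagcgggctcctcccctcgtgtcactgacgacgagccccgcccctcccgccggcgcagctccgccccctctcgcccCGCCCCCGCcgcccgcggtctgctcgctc
These windows were rich in G and C, at 73.2% for Tyro3, 63.2% for Frmd5 and 68.8% for Shf.

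Nuclear proteins and RNA-binding proteins form the next group. Mga, a partner of MAX that sits in a variant Polycomb complex, was bright and close between genotypes as a gene (9.25 ± 0.19 and 9.38 ± 0.11, SD, n = 4 each). Its probe set 4577405 alone read 10.59, 10.91, 11.33 and 10.48 in wild type and 11.90, 12.03, 11.88 and 11.94 in the mutants, a difference of 1.11 ± 0.19 whose call was lost in 3 of the 8 fits that left out an array. The mutants were tight and entirely above the wild types there, while the other 38 probe sets of Mga included 1 more called. Wdr76, a WD-repeat protein, shares its cluster with Serf2 and Hypk. Its probe set 4491619 read 7.64, 6.97, 7.82 and 6.76 in wild type and 8.70, 8.44, 8.37 and 8.66 in the mutants (1.24 ± 0.24, no overlap), a call lost in 5 of the 8 fits that left out an array. Zfp106, an RNA-binding zinc-finger protein, differed by 0.17 ± 0.11 as a gene, yet its probe set 5361485 was called lower relative to the gene (-0.81 ± 0.12). That probe set read 9.90, 9.71, 9.61 and 9.97 against 9.02, 9.54, 9.17 and 8.95. Its call was lost in 5 of the 8 fits that left out an array. Patl2, an RNA-binding protein of oocytes, was separate between genotypes as a cluster (0.28 ± 0.10) with no probe set called. The elongation factor gene Ell3 (0.17 ± 0.12), Zscan29 (0.19 ± 0.18), and the phosphatase-like Ctdspl2 (0.20 ± 0.13) had no called probe set. Cdan1, which is mutated in a human dyserythropoietic anaemia, was measured by 1 probe set of its own, with a difference of -0.20 ± 0.20. Another 31 probe sets and a cluster are shared with Ttbk2, and that cluster differed by -0.17 ± 0.11 and was not called.

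Members of the microtubule cytoskeleton mostly had small positive differences. Tubgcp4, of the gamma-tubulin ring complex, read 8.75 ± 0.16 in wild type and 8.93 ± 0.07 in mutants (SD, n = 4 each). Of its 28 probe sets 12 had no overlap (17.1% over all with 1 symbol) and 2 were called (3.57% over all with 1 symbol), at 0.64 and 0.59. Haus2, a subunit of augmin, which branches spindle microtubules, differed by 0.24 ± 0.13, and Ttbk2, a kinase that starts the assembly of cilia, by 0.22 ± 0.11, with 2 of 20 probe sets called higher. None of the 10 measured genes of the gamma-tubulin ring complex and none of the 6 measured augmin genes was called. Stard9, a kinesin, differed by -0.16 ± 0.12 and had 1 probe set called lower (-0.61). Map1a, which binds microtubules in neurons, differed by 0.12 ± 0.16, and Epb42, a protein of the red cell membrane, by -0.09 ± 0.10, both with no call.

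Protein folding and turnover is served by Pdia3, a disulfide isomerase of glycoproteins in the endoplasmic reticulum and the brightest member (10.64 ± 0.26 in wild type, 10.85 ± 0.10 in mutants, SD, n = 4 each). Of its 16 probe sets 9 had no overlap (17.1% over all with 1 symbol) and none was called. Ubr1, the E3 ligase of the N-degron pathway, was almost level as a gene (0.08 ± 0.11) while its 51 probe sets ran from -1.47 to 1.43. Of these 51, 4448142 was called higher (0.80 ± 0.13) and 5080124 lower (-0.74 ± 0.16), and no others were called. The share called over all probe sets with 1 symbol was 3.57%. A minor Ubr1 cluster (6890336) read 8.34, 8.19, 7.76 and 7.53 in wild type and 6.89, 7.28, 6.73 and 7.25 in the mutants, separate between genotypes and not called (-0.92 ± 0.21). None of the 10 genes of endoplasmic glycoprotein folding and none of the 4 measured N-degron ligases was called. Capn3, a calpain of muscle, Serf2 and Trim69 had no called probe set, and Trim69 was dim, with its single probe set between 4.49 and 6.71.

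Enzymes and transporters included the members with the widest negative differences among called probe sets. Ganc, a neutral alpha-glucosidase, shares its cluster with Capn3, and that cluster was level (0.02 ± 0.11). Its probe sets were not. Probe set 5291549 read 8.87, 8.88, 8.76 and 8.27 in wild type and 6.87, 8.24, 6.25 and 6.78 in the mutants (-1.66 ± 0.36), a call lost in 7 of the 8 fits that left out an array. Probe set 5600887 read 9.31, 9.43, 9.40 and 9.10 against 8.20, 8.91, 8.34 and 7.86 (-0.98 ± 0.21). Probe set 4535127 was higher, at 6.84, 6.31, 6.21 and 7.26 against 7.76, 7.54, 8.07 and 7.82 (1.14 ± 0.24). In both lower probe sets mutant replicate 2 was the mutant nearest to wild type, above the other mutants by more than it lay below wild-type replicate 4. Duox2, which makes hydrogen peroxide, Tgm5, a transglutaminase of skin, the nucleoside transporter gene Slc28a2 and the zinc transporter gene Slc30a4 had differences from -0.21 to 0.15 as clusters, the Slc28a2 cluster being shared with Slc28a2b, and no called probe set.

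Sord, sorbitol dehydrogenase of the polyol pathway, is strongly expressed in proximal tubules. Its bright probe set 5463785 read 10.87, 11.29, 11.41 and 10.61 in wild type and 9.74, 9.83, 9.39 and 9.25 in the mutants, a difference of -1.49 ± 0.21. All mutants were lower with no overlap. The other Sord probe set was dim (5.83 and 5.59 in mean) and differed by -0.24 ± 0.17. Markers of proximal tubule were lower in the same arrays. All 5 (Lrp2, Slc34a1, Slc5a2, Cubn and Slc13a3) had negative differences, 3 were called lower where 0.49% of all clusters were, and their mean ran from 9.21 to 9.46 in wild-type and from 8.43 to 8.79 in mutant arrays. Slc5a2, the dimmest, was at the 52.3 percentile of clusters, and Lrp2, the brightest, at the 99.7. Their part in the Sord result was not tested. Gatm, a proximal tubule enzyme of creatine synthesis that lies in the interval and is no member, had 9 of 13 probe sets called lower. Over all probe sets 1.21% were called lower.

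The last members are known from other organs. Strc, stereocilin of inner-ear hair cells, and Catsper2, a sperm calcium channel subunit, were dim (6.02 and 5.84 in wild type) and differed by -0.05 ± 0.13 and 0.09 ± 0.11. Less is known of Lrrc57, Tmem62 and Tmem87a. Lrrc57 had 1 probe set called higher (0.92) and a cluster without overlap (0.16 ± 0.10), and Tmem62 none called. In Tmem87a, probe set 4343365 read 9.56, 9.45, 9.79 and 9.34 in wild type and 10.60, 10.54, 10.56 and 10.72 in the mutants (1.07 ± 0.14). All mutants were higher there, with an SD of 0.08 among them.

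**Figure D3:**
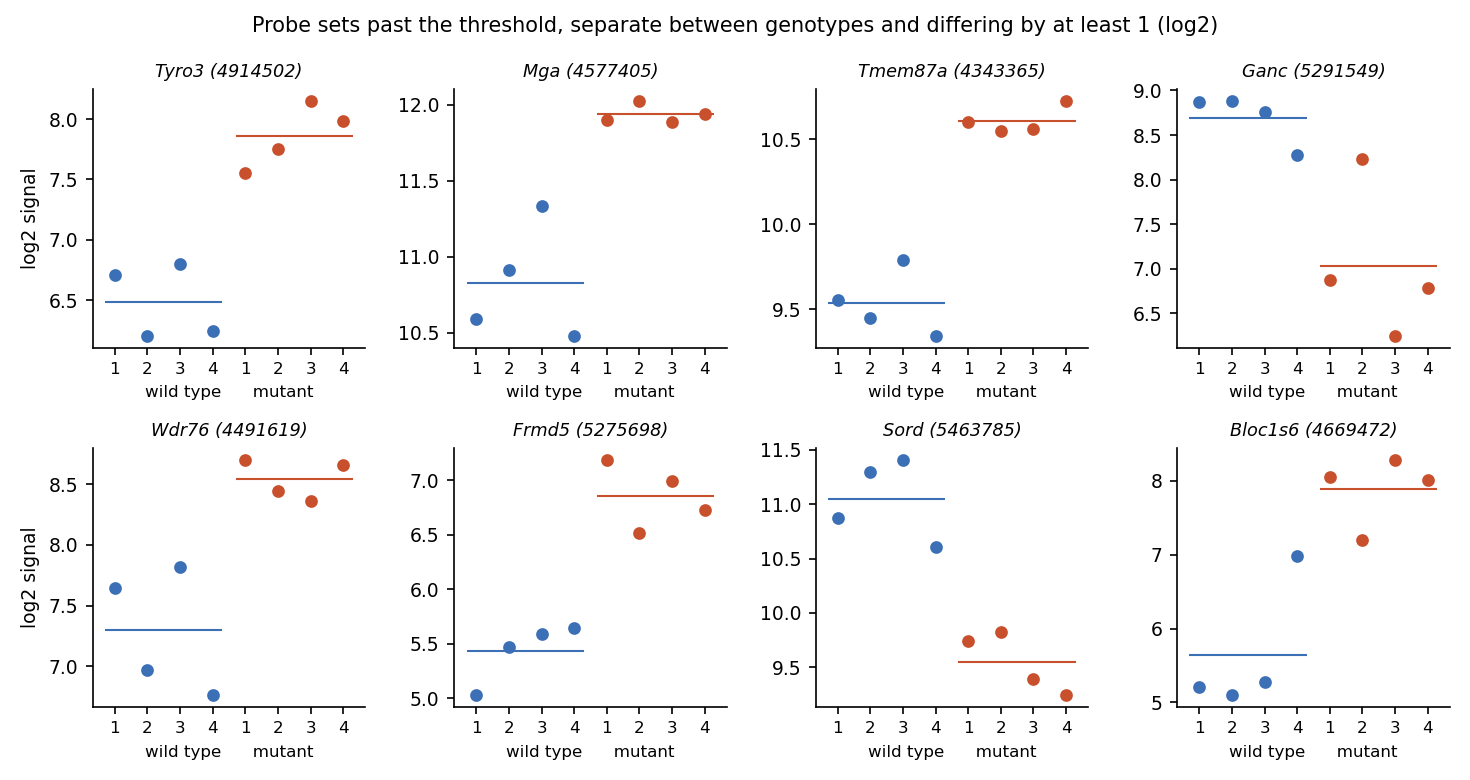
Log2 signal of 8 member probe sets on each array (points, replicates 1 to 4 of each genotype; lines, means), 1 per gene, chosen as called, not overlapping between genotypes and different by at least 1. In 6 the mutants are higher and in Ganc and Sord lower, and mutant replicate 2 is the mutant nearest to wild type in Tmem87a, Ganc, Frmd5, Sord and Bloc1s6.

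Mutant replicate 2 was examined more closely after these values had been seen. It was the mutant nearest to wild type in 21 of the 37 called member probe sets (56.8%), against 23.1% of called probe sets on other chromosomes and 12.2% among Wt1 and the 34 genes on each side of it. With the wild-type mean set to 0 and the mutant mean to 1, the median position of the 4 mutants in the 37 probe sets was 1.06, 0.79, 1.17 and 1.04. The letter of its sample code is shared with mutant replicates 3 and 4.

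In 10 of the 655 member probe sets (1.53%), in 8 genes, mutant replicate 2 lay at least 1 away from each of the other 3 mutants, and in all 10 those 3 were lower. It was toward wild type (nearer the wild-type mean than the mean of the other 3 was) in 9 of the 10 and within the range of the wild types in 7. On other chromosomes the same array stood apart in 0.144% of probe sets and toward wild type in 0.0372%, and around Wt1 in 0 of 627. Mutant replicate 1 stood apart in 2 member probe sets and mutant replicates 3 and 4 in 0. Wild-type replicate 4 stood apart from its own group in 2.44% of member probe sets, near its 1.88% on other chromosomes, and was the lowest wild type in 9 of the 10. It was apart and toward the mutants, in the same sense, in 4 member probe sets (0.611%), against 0.168% on other chromosomes.

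The widest such pattern was in Tmem87a. Its probe set 5311812 read 11.18, 9.75, 11.21 and 7.92 in wild type and 6.17, 9.996, 6.01 and 5.83 in the mutants. Mutant replicate 2 sat among the wild types and the other mutants below all of them. In Ubr1, probe set 5364081 read 8.82, 8.35, 8.44 and 7.98 against 6.48, 8.34, 6.44 and 6.47, and in probe sets 4483910 and 5527221 mutant replicate 2 likewise lay within the range of the wild types, above the other mutants. In Spg11, probe set 5476641 read 8.55, 7.91, 7.50 and 8.32 against 5.68, 8.15, 6.23 and 6.30. In Zscan29, probe set 4592203 read 9.82, 9.70, 9.77 and 8.56 against 7.98, 9.53, 7.89 and 6.92. The genotypes overlap in each of these, and none was called. Zfp106, Wdr76, Ganc and Casc4 had 1 such probe set each, Casc4 being the one where mutant replicate 2 lay farther from the wild-type mean than the mean of the other mutants did.

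**Figure D4:**
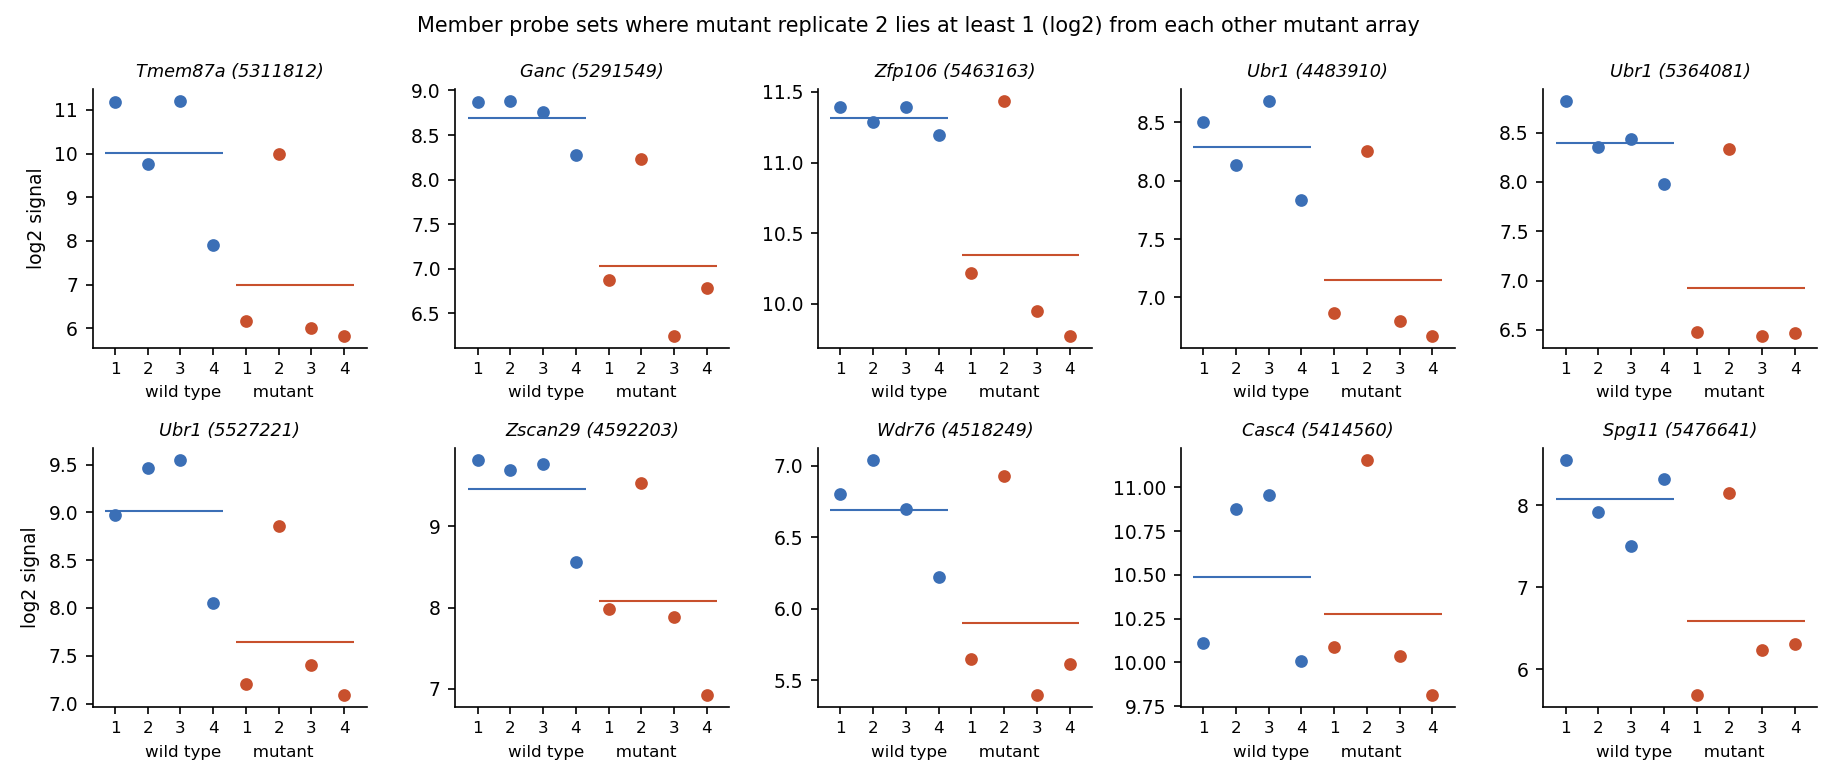
Log2 signal on each array (points; lines, means) of the 10 member probe sets in which mutant replicate 2 lies at least 1 from every other mutant array. Mutant replicate 2 is at the wild-type level in most panels, as in Tmem87a at 9.996 beside 6.17, 6.01 and 5.83.

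With mutant replicate 2 left out, the calls relative to the gene changed in kind. There were 17 in place of 15, in 10 genes, with 1 higher and 16 lower in place of 11 higher and 4 lower, and 4 of them were shared with the calls from all arrays. The share of all probe sets called this way without that array was 0.151%, 0.0658% higher and 0.0856% lower. In 15 of the 17 mutant replicate 2 was the mutant nearest to wild type, which leaving it out favours by construction. Exon-level calls without that array were 30 of the 655 member probe sets, with 14 higher and 16 lower. Over all probe sets 4091 of 375483 were called without it, 2032 higher and 2059 lower.

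The segment was then set beside the rest of chromosome 2, in blocks of 34 protein-coding genes counted from Tyro3, of which 44 held at least 100 probe sets. The segment's own 2 blocks, which hold all 68 genes of the interval, had 5.49% and 9.35% of probe sets called, the 12th and 3rd highest of the 44, and 2.31% and 2.09% called relative to the gene, the 2nd and 3rd highest. The members were picked on genotype differences in these same arrays, and the blocks are counted from Tyro3. These ranks therefore follow in part from that choice and are a description. The highest block on both measures, at 14.3% and 5.28%, was the one just before that of Wt1. Probe sets of chromosome 2 away from the segment and from Wt1 were called in 3.52% of cases, and 0.496% relative to the gene, close to 3.53% and 0.458% on other chromosomes. Without Sord and Bloc1s6, the members had 4.98% called and 2.19% called relative to the gene.

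Probe sets with mutant replicate 2 apart and toward wild type were gathered in 1 stretch. Chromosome 2 held 24 of them, and 21 of the 24, in 16 genes, lay in 4 consecutive blocks from Knstrn to Sema6d, a run of 100 genes that contains the segment. In these 4 blocks none of the other 3 mutants was apart toward wild type in any probe set. Other mutants had such groups elsewhere on the chromosome: further along, 1 block had mutant replicate 3 apart toward wild type in 8 of 440 probe sets (1.82%), a larger share than in any block for mutant replicate 2, and the block before it had mutant replicate 1 apart in 4 of 349. Members hold 9 of the 21. Of the non-members of the interval, Lcmt2 had the widest, at 10.60, 10.20, 10.69 and 9.04 in wild type and 7.15, 9.99, 6.68 and 6.30 in the mutants, and Hypk and Eif3j1 had 1 each.

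**Figure D5:**
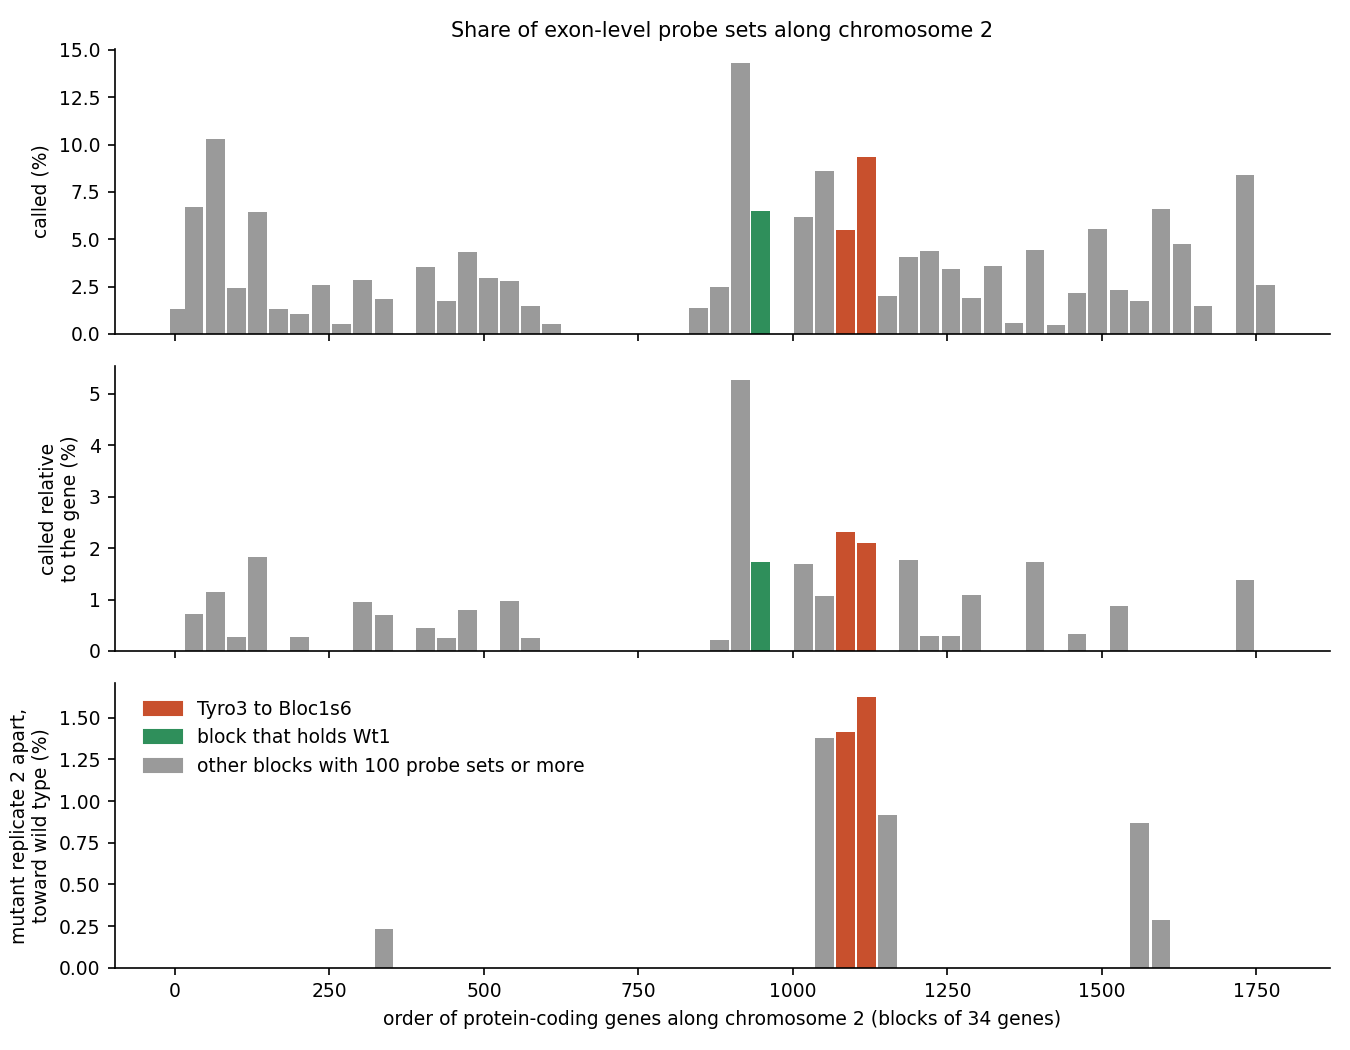
Share of exon-level probe sets in blocks of 34 protein-coding genes along chromosome 2 that were called (top), called relative to their gene (middle), or had mutant replicate 2 apart from the other mutants and toward wild type (bottom). The segment's blocks have 2.31% and 2.09% in the middle panel, and 1.42% and 1.63% in the bottom panel, where the block of Wt1 has none.

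The non-members of the interval had 17 of 156 probe sets called (10.9%, where 3.57% of those with 1 symbol were), 9 of them the lower ones of Gatm. The other 8, all higher, were 2 of Ckmt1, a mitochondrial creatine kinase, and 1 each of Ehd4, Adal, Trp53bp1, Hypk, Eif3j1 and AA467197. None of their 20 clusters was called, where 1.42% of clusters with 1 symbol were. The Gatm cluster differed by -0.94 ± 0.21 with no overlap.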

How the data were processed

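Labels gave the genotype and replicate number of each array. The authors deposited log2 values from RMA (background correction, normalization and summary of probes) made with Partek on mm9, per the submitters' processing notes, with neither version nor settings given in the sources used here. That the logs are to base 2 was read off their range. RMA draws dim probes toward a floor, so differences of dim genes are understated. Arrays have no read depth, and their number limits the precision.

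Rows were named through the platform annotation, with older symbols updated through RefSeq (5 members at the exon level). RefSeq's build differs from the authors', so it served for names, gene order and promoters only. Exon positions of probe sets and probe sequences were not used here, so a probe set that also binds another gene is not recognised. Nor is a probe set that lies over a base differing between C57Bl6 and DBA2. The part of such bases in the differences of single probe sets was not tested. Each difference is from limma 3.58.1 under R 4.3.3 (lmFit, eBayes, two-sided), without covariates, with p adjusted by Benjamini-Hochberg over every row. Relative values subtract the mean of the gene's probe sets on each array, in genes with at least 3. The main limma fit was tried on simulated data at the gene level, at the exon level and relative to the gene. The other steps were not tried in this way. The labels name separate samples but not separate litters, so the spread may be partly technical.

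For each member the cluster with the highest mean was used. Probe sets were named where called, without overlap and different by at least 1, taking per gene the one departing most from its gene, as well as Tyro3, Bloc1s6, called non-members and Wt1; the remaining probe sets were picked after their values were seen. Members and lists were chosen with earlier results of these data known. Alternatives left out each array, added the replicate number or the sample code's letter as a block, array weights, or limma's trend and robust options, and changed the normalization, the rows tested and the gene level.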

Additional observations from a re-analysis of the deposited data

Results flagged for a closer look

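In Bloc1s6, wild-type replicate 4 lay far from the other wild types. It read 6.98 in the minor transcript cluster 6880716, and the same 6.98 in probe set 4669472, whose values are identical, while the other 3 wild types lay between 5.10 and 5.28. The gap to its nearest neighbour was 0.902 of the range of the 4 values. Among 22 groups of 4 values checked this way 2 stood out, which are this 1 measurement counted at both levels, and chance marks about 1 in 20 groups.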

How the results depend on the processing

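Alternatives were run for the counts of calls, the Tyro3 and Bloc1s6 clusters, the 8 probe sets chosen by rule and the 15 called relative to their gene, and none of these changed sign. Of the 44 member clusters, 2 were called with all arrays (774 of 93623 over all). With each array left out in turn, 2 were called without wild-type replicate 4 (758 over all) and 0 in the other 7 runs (268 to 524). The sample code's letter as a block gave 0 (258 over all). Rows with 1 symbol gave 6 (1408 of 20707 over all), and means of probe sets gave 4 of 41 (2102 of 18513 over all). Of the 655 probe sets, 37 were called, and 7 to 33 with each array left out (7 without mutant replicate 3, wild-type replicate 2 left out gave 9 and replicate 1 gave 11, mutant replicate 4 left out gave 12 and replicate 1 gave 14). Over all 375483 probe sets, 10035 were called with all arrays and 3513 to 9913 with each array left out. The letter block gave 8 (2831 over all), array weights 63 (15378), and trend and robust options 64 (16875). Rows with 1 symbol gave 69, with 12209 of 192914 over all. Rows at or above the median level gave 57 of 462, with 11805 of 187742 over all. Normalizing again by quantiles gave 38, with 26 higher and 12 lower in place of 31 and 6. Over all probe sets it gave 5324 higher and 5478 lower in place of 5475 and 4560. Relative to the gene 15 were called (898 of 186834 over all), and 0 to 22 with each array left out (140 to 1743 over all). The letter block gave 0 (114 over all), array weights 30 (2018), trend and robust options 23 (1349) and the median as gene level 3 (423). The cause of these shifts was not tested. Where rows were left out, p was adjusted over fewer rows, and SEs changed as well. The SE of the Tyro3 cluster was 0.111 over all rows and 0.085 among rows with 1 symbol.

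Whether the replicate numbers pair the arrays was not settled, since arrays of different numbers were not compared. Same-numbered deviations correlated at -0.005 to 0.263 at the gene level. At the exon level they correlated at -0.001, 0.117, 0.236 and 0.200 for replicates 1 to 4. With the replicate number as a block 0 clusters, 32 probe sets and 0 probe sets relative to the gene were called. Over all rows the same fits called 185, 7859 and 157.

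The probe sets named for Tyro3 (4914502), Tmem87a (4343365), Frmd5 (5275698) and Sord (5463785) were called under every alternative run. Both Bloc1s6 clusters lost their call in 7 of 8 runs with an array left out, at differences of 0.55 to 0.62 and 2.07 to 2.69, Ganc 5291549 in 7 of 8, at -2.06 to -1.40, Wdr76 4491619 and Bloc1s6 4669472 in 5 of 8, and Mga 4577405 in 3 of 8. All of these also lost it with the letter block.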
